A study of Mus musculus with 30 samples.

Results

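The genes described here encode 9 parts or regulators of the smooth muscle contractile machinery and 1 receptor that drives it, 10 genes in all of the 11137 in the table. They were chosen by name as contractile genes of the mammary myoepithelium: *Acta2*, *Actg2*, *Myh11*, *Mylk*, *Myl9*, *Cnn1*, *Tagln*, *Tpm1*, *Tpm2* and *Oxtr*. All 10 are in the table. Their levels were followed over 30 libraries of sorted mouse mammary cells in 8 groups, set by lineage (luminal or basal), stage (virgin or parous) and genotype (K8imTmG or K8iΔRank). All mice, controls included, carried K8rtta, TetO-Cre and the Rosa mT/mG reporter and drank doxycycline at 1 mg per ml, given between 3 and 8 weeks of age per the labels and from week 4 per the methods. K8iΔRank mice also carried Rank fl/fl. Cre is driven from the Krt8 promoter, so that Rank is deleted and GFP switched on in luminal cells, while the basal cells of K8iΔRank mice keep Rank and share a gland with Rank-deleted luminal cells. Luminal libraries came from GFP+ cells of 3 virgin K8imTmG, 3 virgin K8iΔRank, 5 parous K8imTmG and 4 parous K8iΔRank mice, and basal libraries from 3, 4, 4 and 4 mice of the same groups. Parous glands were taken after 30 days of involution. Parous K8imTmG females had nursed until their pups were removed at day 10 of lactation, whereas K8iΔRank females did not sustain lactation, so that parity differs between the genotypes in more than Rank.

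The outer, basal layer of the mammary duct is a contractile epithelium. Myoepithelial cells carry smooth muscle actin and myosin, and at nursing the pituitary hormone oxytocin binds the oxytocin receptor, raises calcium, activates myosin light chain kinase and makes the layer shorten, which ejects milk. Many smooth muscle genes are transcribed through serum response factor, which binds a short element called the CArG box with cofactors of the myocardin family.

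The actins are *Acta2* (smooth muscle alpha-actin; chr19:34217737-34232990, minus strand, GRCm39) and *Actg2* (enteric smooth muscle gamma-actin; chr6:83489887-83513551, minus). The myosin members are *Myh11*, the smooth muscle myosin heavy chain (chr16:14012399-14109236, minus), *Myl9*, a regulatory light chain (chr2:156617084-156623579, plus), and *Mylk*, the kinase that phosphorylates that chain (chr16:34565580-34822790, plus). *Cnn1* encodes calponin, an actin-binding inhibitor of the myosin ATPase (chr9:22010512-22020926, plus), and *Tagln* encodes transgelin, an actin cross-linker (chr9:45840909-45847404, minus). *Tpm1* (chr9:66929870-66956953, minus) and *Tpm2* (chr4:43514697-43524949, minus) encode tropomyosins, which lie along actin filaments, and are spliced into muscle and non-muscle forms. *Oxtr* encodes the oxytocin receptor (chr6:112450644-112468040, minus). The assay counted molecules by their 3′ ends, so that forms of a gene that share an end, such as tropomyosin isoforms or the long and short products of *Mylk*, were not separated. Annotated exons of *Stambpl1*, *Elof1* and *Pcsk7* lie opposite to exons of *Acta2*, *Cnn1* and *Tagln*. The library kit keeps strand, but the strand setting of the counting is not given in the sources used here. *Stambpl1* reached at most 36.1 normalised counts in any luminal and 16.2 in any basal library. *Elof1* had 63.4 to 215 in luminal and 93.1 to 201 in basal libraries, and *Pcsk7* 8.83 to 28.8 and 3.22 to 24.1. In luminal libraries *Elof1* lay above *Cnn1* and *Pcsk7* above *Tagln*, while *Stambpl1* overlapped *Acta2*. The part of these genes in the luminal values was not tested.

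Promoter sequence was at hand for 7 of the 10 genes, from RefSeq on build GRCm38.p6 (*Acta2*, *Mylk*, *Myl9*, *Cnn1*, *Tpm1*, *Tpm2* and *Oxtr*, and not *Actg2*, *Myh11* and *Tagln*). The 250 bases before the start of transcription were searched for the CArG box, a palindromic element of 10 bases, with CC and GG around a core of 6 A or T bases, so that both strands are read at once. An exact box was found in 1 of the 7, *Myl9*, against 1.47% of 32851 promoter entries of the same length, and a box with at most 1 other base in the core in 2 of the 7, *Myl9* and *Acta2*, against 8.59% of all entries. These 4 sites are shown because they are the element that the contractile gene family is known for. Each is printed 5′ to 3′ on the strand of its gene, with the box in capitals.
Myl9, exact, 161 to 152 bases before the start, chr2:156775293-156775322, plus strand: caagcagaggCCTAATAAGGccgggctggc
Myl9, 1 core mismatch, 99 to 90 bases before the start, chr2:156775355-156775384, plus strand: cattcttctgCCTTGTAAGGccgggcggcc
Acta2, 1 core mismatch, 84 to 75 bases before the start, chr19:34255438-34255467, minus strand: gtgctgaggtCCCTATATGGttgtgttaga
Acta2, 1 core mismatch, 34 to 25 bases before the start, chr19:34255388-34255417, minus strand: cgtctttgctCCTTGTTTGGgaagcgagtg
A match is a description of these letters and not a measured binding site.

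RNA integrity numbers of the sorted cells ran from 2.5 to 8.6 per the labels, with a mean of 6.9. Libraries held 340445 to 3130419 reads, and the 3 basal libraries of virgin K8imTmG mice were among the shallow ones, with 340445 to 1172427. Depth also parted groups compared below. Virgin basal K8iΔRank libraries held 1200781 to 2104379 reads, and parous basal ones 1844364 to 2996649 against 450064 to 1365008 in parous K8imTmG. Luminal virgin K8iΔRank libraries held 814455 to 1158036, below virgin K8imTmG (1862812 to 2422876) and parous K8iΔRank (2214318 to 3130419). The part of depth in the differences was not tested. All levels below are the deposited normalised read counts, in which 1 read was worth 0.381 to 5.43. The keratins followed the labelled lineage: *Krt5* lay between 811 and 1463 in basal and between 2.46 and 17.7 in luminal libraries, and *Krt8* between 201 and 664 in basal and between 994 and 3134 in luminal libraries. The targeted gene *Tnfrsf11a* (Rank) could not check the deletion, since a 3′ tag need not lie in the deleted part of the gene. It had 9.57 to 18.6 in luminal virgin K8imTmG, 11.5 to 23.8 in luminal virgin K8iΔRank, 12.8 to 64.9 in luminal parous K8imTmG and 27.0 to 41.1 in luminal parous K8iΔRank libraries. The libraries also fell into 2 sides by the lectin gene *Clec2d*, which had 65.6 to 199 normalised counts in 14 libraries and 0.641 to 8.68 in the other 16. In virgin mice the sides coincided with the genotypes in both lineages, in opposite directions: the basal control and luminal K8iΔRank libraries were Clec2d-high and the basal K8iΔRank and luminal control libraries Clec2d-low, so that genotype and side cannot be told apart there. All 4 basal parous K8imTmG libraries were high, basal parous K8iΔRank libraries were 2 high (mice 794 and 830) and 2 low (787 and 798), luminal parous K8imTmG libraries 2 high and 3 low, and luminal parous K8iΔRank libraries all low.

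Which lineage carries the contractile program was asked first. All 10 genes were higher in basal cells, and for each of them every basal library lay above every luminal library. How many of all genes part the lineages in this way was not computed. Together they took 0.642 to 1.16% of the reads of a basal library (median 0.883%, n = 15) and 0.0305 to 0.0537% of the reads of a luminal library (median 0.0473%, n = 15). In the comparison of all luminal with all basal groups (limma, n = 15 against 15) all 10 were called lower in luminal cells, with a median log2 difference of -6.79. Over all genes tested 55.7% were called, in either direction, and the median log2 difference was 0.0353, so that a call alone was common in this comparison. *Actg2*, *Myh11* and *Tagln* had no luminal library above the filter of 10 normalised counts. *Myl9*, *Cnn1* and *Tpm2* exceeded it in luminal cells of virgin K8iΔRank mice only. These genes passed the filter through their basal libraries, so that the count of called members is not read as a result.

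*Acta2* had 2409 to 5273 normalised counts in basal libraries (median 4013) and 8.84 to 110 in luminal libraries (median 22.3). Its mean was 130-fold higher in basal cells, with a log2 difference of -7.19 ± 0.16 (luminal minus basal, SE here and below). The lowest basal library still held 21.9 times the highest luminal one. *Actg2* had 16.5 to 155 normalised counts in basal libraries and was listed at 0 in 11 of 15 luminal libraries. The other 4 luminal libraries held 1 read each, against 1428 reads in the basal libraries. All luminal values lay under the floor of 3 reads per library, and against that floor the basal mean was at least 27.0-fold higher. Its fitted log2 difference of -5.69 moved between -8.19 and -3.95 over the alternatives, and counting it at its bound left the median of the members at -6.79.

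Of the myosin members, *Mylk* had 2378 to 4550 normalised counts in basal and 6.39 to 88.3 in luminal libraries. Its log2 difference was -6.90, and its basal mean was 114-fold the luminal one. *Myh11* had 410 to 1355 in basal and 0 to 9.25 in luminal libraries, a log2 difference of -7.41, and its groups were the farthest apart: the lowest basal library held 44.4 times the highest luminal one. *Myl9* had 426 to 1085 in basal and 0 to 17.7 in luminal libraries, with a log2 difference of -6.86. Both actin-binding regulators were also higher in every basal library. *Cnn1* had 480 to 1199 normalised counts in basal and 0.641 to 17.2 in luminal libraries and the lowest log2 difference of the 10, at -7.42. *Tagln* had 179 to 465 in basal and 1.68 to 6.47 in luminal libraries, with a log2 difference of -6.14.

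The tropomyosins parted from each other. *Tpm2* had 384 to 1461 normalised counts in basal and 3.90 to 12.6 in luminal libraries, with a log2 difference of -6.71. *Tpm1* was well expressed in both lineages, with 1398 to 2564 in basal and 386 to 607 in luminal libraries. Its log2 difference of -1.95 ± 0.08 was a 3.92-fold difference of the means, the smallest of the 10, and a luminal library held 19.5 to 30.8% of the basal mean of *Tpm1* where the luminal medians of the other 9 ranged from 0 to 2.80%. The receptor *Oxtr* had 351 to 899 normalised counts in basal libraries (median 482) and 8.33 to 48.4 in luminal libraries (median 14.9). Its basal mean was 29.02-fold higher and its log2 difference was -4.87 ± 0.20. Every luminal library held *Oxtr* at or above the floor of 3 reads, at 1.56 to 9.08% of the basal mean, and the highest was the parous K8imTmG library of mouse 532.

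**Figure D1:**
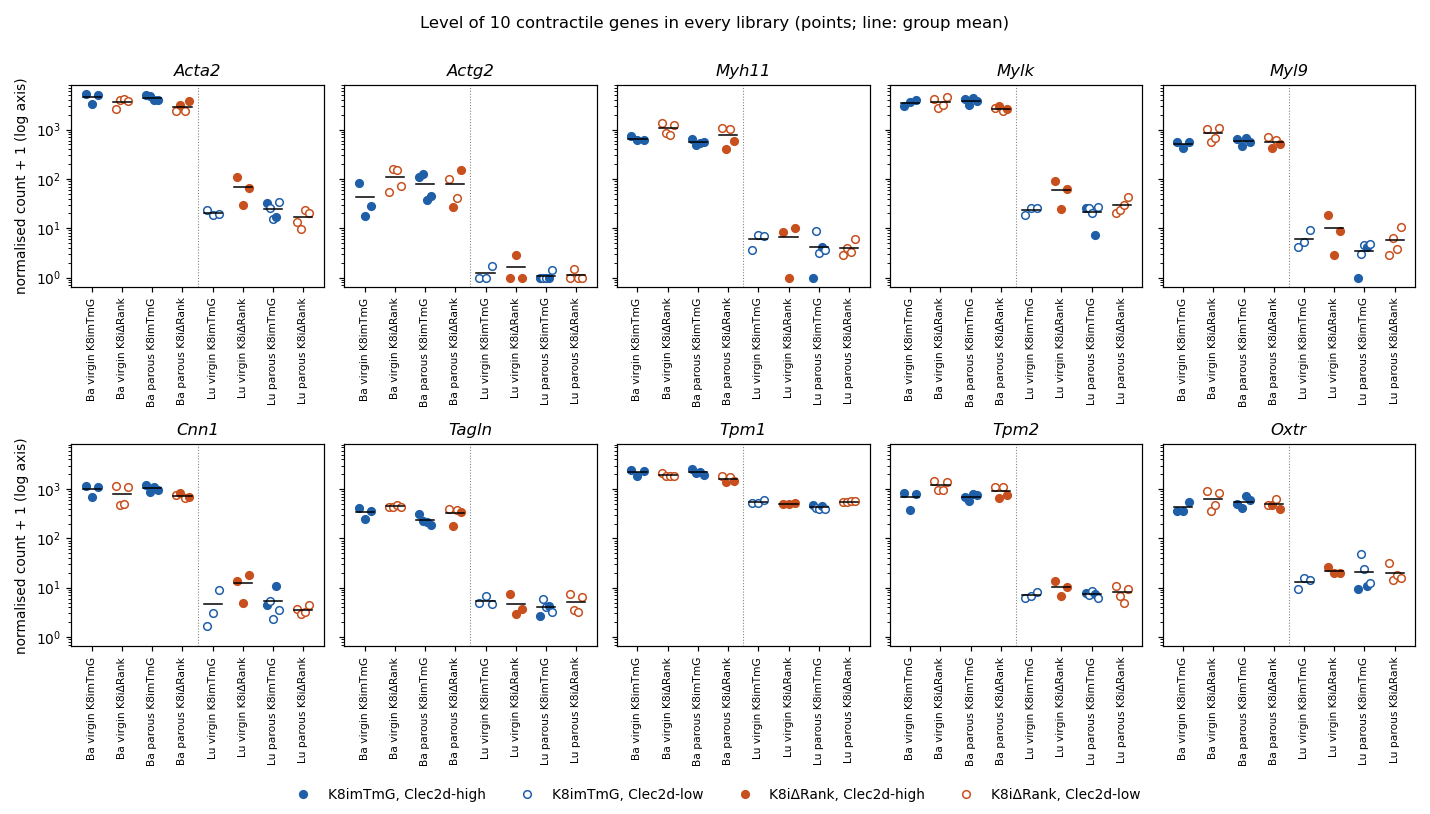
Normalised count plus 1 (log axis) of the 10 contractile genes in each of the 30 libraries, by group (Ba, basal, left of the dotted line; Lu, luminal). Blue is K8imTmG and orange K8iΔRank, filled points are Clec2d-high and open points Clec2d-low libraries, and lines are group means. No luminal point of any gene reaches a basal point of the same gene, and *Tpm1* has the smallest gap.

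The same held within each pair of stage and genotype. All 10 genes were called lower in luminal cells in virgin K8imTmG mice (median log2 difference -6.48, with 36.2% of all genes called), virgin K8iΔRank mice (-6.13, 35.9% called), parous K8imTmG mice (-6.98, 30.7% called) and parous K8iΔRank mice (-6.67, 37% called). *Actg2*, *Myh11* and *Tagln* again passed the filter through the basal libraries alone in each pair. *Myl9*, *Cnn1* and *Tpm2* did so in every pair except virgin K8iΔRank. These counts are therefore not read as a result. *Acta2* differed by -7.76 ± 0.25, -5.92 ± 0.39, -7.55 ± 0.25 and -7.52 ± 0.28 in that order. Whether these differences differ from each other is taken up below, within each lineage. The sorted basal cells can hold other contractile cells. Of 12 markers of pericytes and vascular smooth muscle 5 were in the table, and 4 of the 5 were lower in luminal cells (*Rgs5*, *Rgs4*, *Mcam* and *Pdgfrb*), while *Notch3* was higher. Of all 11133 genes tested, 3003 were lower and 3194 higher. *Des*, *Cspg4*, *Kcnj8*, *Abcc9*, *Higd1b*, *Vtn* and *Ndufa4l2* are not analysed here. The summed level of the 5 was 182 to 440 normalised counts in basal and 121 to 231 in luminal libraries. All 9 measured fibroblast markers and 6 of 7 endothelial markers were also lower in luminal cells, although CD31+ endothelial and CD45+ blood cells were gated out at the sort per the methods. Their part in the results was not tested.

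Other genes of contraction were taken from lists, to be read beside all 11133 genes tested, of which 3003 were lower and 3194 higher in luminal cells. Of 35 further genes of the contractile apparatus, 28 were lower and 4 higher in luminal cells, with a median log2 difference of -1.16. Of 12 genes of the serum response factor and MRTF axis 9 were lower and 1 was higher (median -1.33). Of 30 genes of contraction signalling 12 were lower and 10 higher, with a median of 0.12, close to that of all genes. The 3 with the lowest adjusted p among the lower genes were *Palld* (palladin, an actin cross-linker; -4.66 ± 0.10), *Vim* (vimentin, an intermediate filament; -4.90 ± 0.12) and *Tgfb1i1* (Hic-5, a focal adhesion protein; -5.43 ± 0.14). Those among the higher genes were *Myh14* (a non-muscle myosin heavy chain; 2.29 ± 0.15), *Itpr2* (a calcium release channel; 1.77 ± 0.13) and *Orai1* (a calcium entry channel; 2.07 ± 0.17).

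**Figure D2:**
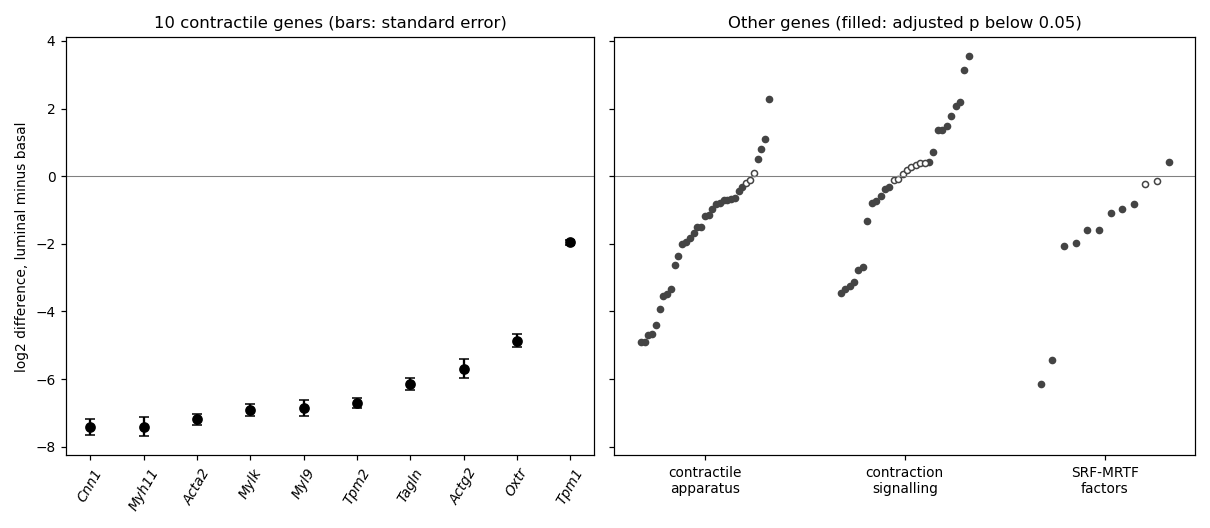
Log2 difference (luminal minus basal, all 30 libraries) of the 10 contractile genes with standard errors, left, and of the genes of 3 lists without error bars, right; filled points passed adjusted p below 0.05. Of the 10, 9 lie at or below -4.87 and *Tpm1* at -1.95, while the lists reach from -6.13 to 3.55.

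Among the 4 basal groups the means ran from 1624 to 2224 normalised counts for *Tpm1*, from 559 to 1065 for *Myh11* and from 41.4 to 107 for *Actg2*. The order of the group means put virgin K8iΔRank highest for 6 of the 10 genes, virgin K8imTmG for 2 (*Acta2* and *Tpm1*) and parous K8imTmG for 2 (*Mylk* and *Cnn1*). Neighbours in that order overlapped for every gene at every step except 1 step for *Tagln*. Groups farther apart in the order did not overlap for some genes, as given below. Over the 15 basal libraries the highest value was 1.83 times the lowest for *Tpm1*, 1.91 times for *Mylk*, 3.80 times for *Tpm2* and 9.38 times for *Actg2*. The coefficient of variation of the 10 had a median of 30.1%, beside 30.9% over the 852 genes with the highest basal means.

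Virgin basal cells were compared between genotypes to ask whether Rank loss in the luminal layer reaches the contractile genes of its neighbours. None of the 10 was called by limma at an adjusted p below 0.05, where 8.99% of all genes were. Neither DESeq2 nor edgeR on the recovered reads called one. An unadjusted limma p below 0.05 was found for 4 of the 10, beside 29.3% of all genes. The log2 differences (K8iΔRank minus K8imTmG) ran from -0.38 to 1.52 with a median of 0.46, and SEs ran from 0.20 to 0.55. *Tpm2* had 384, 799 and 843 normalised counts in K8imTmG and 945, 979, 1381 and 1461 in K8iΔRank libraries. The groups did not overlap, and the log2 difference was 0.87 ± 0.31 (limma adjusted p = 0.0966). *Myh11* had 603, 619 and 731 against 794, 843, 1266 and 1355, again without overlap, with a log2 difference of 0.67 ± 0.24 (limma adjusted p = 0.103). *Tagln* had 244, 359 and 417 in K8imTmG libraries and a narrow 433 to 465 in K8iΔRank libraries, for a difference of 0.42 ± 0.22 (limma adjusted p = 0.227). These are the 3 genes whose groups did not overlap. The share of all genes without overlap was not computed, so that count is a description only.

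*Actg2* had the largest difference, 1.52 ± 0.55 (limma adjusted p = 0.102), with 16.5, 27.2 and 80.4 normalised counts in K8imTmG and 54.2, 70.9, 149 and 155 in K8iΔRank libraries. The 2 lowest of these values rest on 4 and 5 reads. *Myl9* had 426, 552 and 571 against 557, 681, 1012 and 1085, a difference of 0.65 ± 0.27 (limma adjusted p = 0.142). *Acta2*, *Cnn1* and *Tpm1* had negative differences of -0.29, -0.38 and -0.21, and those of *Acta2* and *Tpm1* turned positive (0.66 and 0.41) under quantile normalization. In this comparison the low side of *Clec2d* held all K8iΔRank libraries and the high side all controls. Every K8iΔRank library was also deeper than every control. Under quantile normalization 3 members were called higher, *Mylk*, *Myh11* and *Tpm2*. With the side as a term in a fit over all basal libraries, an alternative chosen after the data had been seen, the difference of *Myh11* turned to -0.45 and that of *Tagln* to -0.23, and no gene of the table was called. The side difference in that fit comes from basal parous K8iΔRank alone, with 2 libraries a side. Whether it holds in virgin cells was not tested, where genotype and side cannot be told apart.

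Of the contraction lists 3 of 35 genes of the contractile apparatus, 1 of 26 of signalling and 2 of 12 of the serum response factor and MRTF axis were called in this comparison, beside 8.99% of all genes, so that the first 2 shares are near or below the background. In the contractile apparatus *Lmod1* (leiomodin, a nucleator of smooth muscle actin; 1.31 ± 0.32, limma adjusted p = 0.0348) and *Pdlim7* (an actin-associated LIM protein; 0.81 ± 0.21, limma adjusted p = 0.0396) rose and *Tpm4* (a non-muscle tropomyosin; -0.87 ± 0.22, limma adjusted p = 0.0377) fell. *Lmod1* had 228 to 335 normalised counts in K8imTmG and 477 to 1156 in K8iΔRank libraries, and *Tpm4* had 1029 to 1380 against 515 to 768. In signalling *Rock1*, a kinase that restrains myosin phosphatase, rose by 0.91 ± 0.19 (limma adjusted p = 0.0226). Of the serum response factor and MRTF genes the matricellular genes *Ccn1* and *Ccn2* fell, with log2 differences of -3.77 ± 0.51 and -3.84 ± 0.77 (limma adjusted p = 0.00585 and 0.0189). Of 12 immediate early genes, *Junb* and *Nr4a1* fell (-1.46 and -2.72). The pericyte marker *Rgs4* rose by 1.94 on the log2 scale, with 10.9 to 24.4 normalised counts in controls and 38.7 to 97.4 in K8iΔRank libraries (limma adjusted p = 0.0213). *Junb*, *Nr4a1* and *Rgs4* were picked after their values were seen. Of the 5 pericyte and vascular smooth muscle markers tested, *Rgs4* was the only one called. The median log2 difference of the 5 was negative, at -0.55. Summed pericyte and vascular smooth muscle markers overlapped, with 339 to 438 normalised counts in controls and 287 to 440 in K8iΔRank libraries, while summed endothelial markers had 190 to 481 against 208 to 848. The part of these and of the *Clec2d* side in the members' differences was not tested. In bulk libraries fewer cells of a type and less RNA per cell cannot be told apart.

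In parous basal cells the genotypes were compared in the same way. None of the 10 genes was called by limma (0.906% of all genes were). An unadjusted limma p below 0.05 was found for 3 of them, beside 22.6% of all genes. DESeq2 called 2 lower, *Acta2* and *Mylk*, and edgeR called none. Of the log2 differences 7 were negative, with a median of -0.14, a range from -0.63 to 0.44 and SEs from 0.19 to 0.53. *Acta2* had 4013, 4072, 4796 and 5042 normalised counts in K8imTmG and 2409, 2426, 3119 and 3780 in K8iΔRank libraries. Every K8iΔRank library lay below every control, and the log2 difference was -0.63 ± 0.24 (limma adjusted p = 0.154). *Mylk* had 3089, 3804, 4100 and 4463 against 2378, 2598, 2684 and 3033, a difference of -0.52 ± 0.22 (limma adjusted p = 0.189). *Cnn1* had 856, 953, 1103 and 1199 against 651, 681, 748 and 845, a difference of -0.49 ± 0.19 (limma adjusted p = 0.17). *Tpm1* had 1926, 2073, 2210 and 2564 against 1398, 1479, 1787 and 1833, a difference of -0.43 ± 0.21 (limma adjusted p = 0.232). For these 4 genes the groups did not overlap, and the share of all genes without overlap was not computed. Under quantile normalization the differences of *Acta2*, *Mylk* and *Tpm1* turned to 0.30, 0.39 and 0.23. That of *Cnn1* stayed negative at -0.23. *Myh11*, *Tagln* and *Tpm2* had positive differences of 0.37, 0.44 and 0.34, and the groups overlapped. None of the genes of the 3 contraction lists was called here or in the other comparisons among basal groups below. Summed endothelial markers had 51.8 to 143 normalised counts in K8imTmG and 102 to 179 in K8iΔRank libraries, and summed pericyte and vascular smooth muscle markers 182 to 426 and 246 to 378. Their part was not tested.

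**Figure D3:**
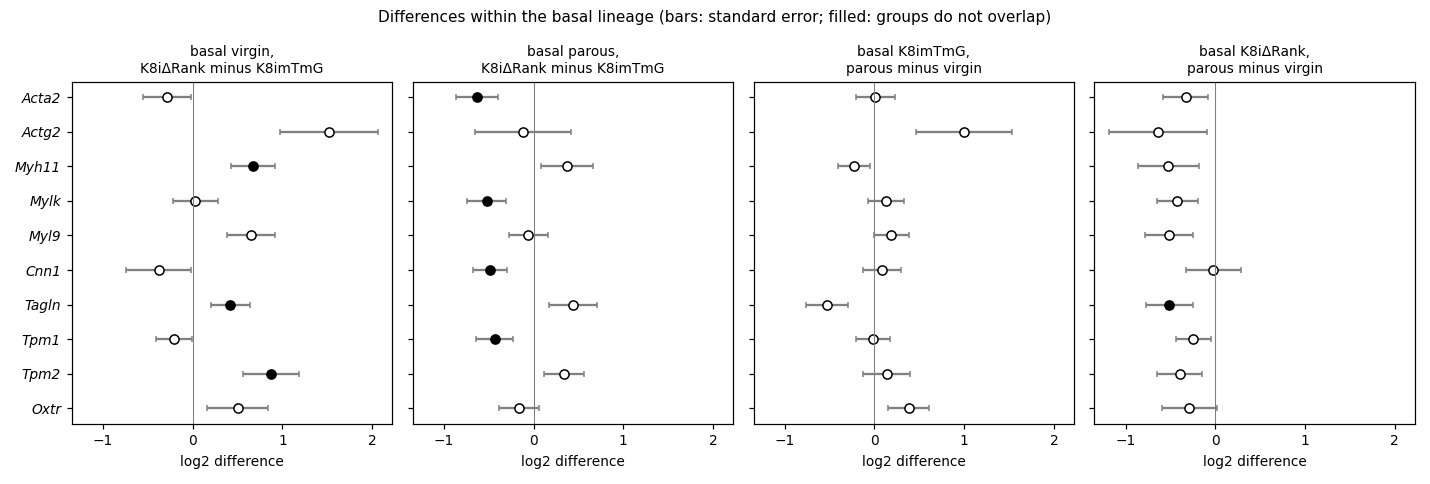
Log2 difference of the 10 genes in the 4 comparisons among basal groups, with standard errors; filled points mark genes whose groups do not overlap. No gene passed an adjusted p below 0.05 by limma, and *Actg2* has the widest error in each panel.

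Basal parous K8iΔRank is the one basal group that holds both sides of *Clec2d*, and here several members parted by side (2 libraries a side, no test). How many of all genes part in this way was not computed. *Myh11* had 1026 and 1098 normalised counts in the low libraries and 410 and 580 in the high ones, a ratio of the means of 2.14. *Tpm2* had 1098 and 1101 against 666 and 767, *Myl9* 625 and 715 against 428 and 517, and *Tagln* 378 and 403 against 179 and 346. *Tpm1* and *Oxtr* were also higher in both low libraries. *Acta2* went the other way, with 2409 and 2426 in the low libraries and 3119 and 3780 in the high ones, and *Actg2*, *Mylk* and *Cnn1* overlapped. In a fit over the 15 basal libraries with terms for group and side, *Myh11* differed by -1.12 ± 0.28 (high minus low, limma adjusted p = 0.0547), the lowest adjusted p of the 10, where 1.66% of all genes were called. Restricted to the high side, the parous genotype difference of *Myh11* was -0.19 and that of *Tpm2* 0.03, with 2 K8iΔRank libraries left.

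Parity was compared within each genotype, since pregnancy and lactation are the stage at which myoepithelial cells contract. In basal K8imTmG cells no member and no gene of the table was called by limma (0% called), and DESeq2 and edgeR called no member. Only 1 member had an unadjusted limma p below 0.05, beside 9.2% of all genes. That member was *Tagln*, with 188, 211, 225 and 308 normalised counts in parous and 244, 359 and 417 in virgin libraries, a log2 difference of -0.53 ± 0.23 (limma adjusted p = 0.522). *Actg2* had a difference of 1.00 ± 0.54 and *Oxtr* of 0.38 ± 0.23, and the other 7 lay between -0.22 and 0.19. In basal K8iΔRank cells no member was called either (0% of all genes were), and DESeq2 and edgeR called none. No member had an unadjusted limma p below 0.05, beside 9.84% of all genes. All 10 differences were negative, from -0.64 to -0.02 with a median of -0.41, but with array quality weights 4 turned positive and the median was -0.10. *Tagln* was the only member without overlap, with 433 to 465 in virgin and 179, 346, 378 and 403 in parous libraries (-0.51 ± 0.26, limma adjusted p = 0.497). Within the low side alone its difference was -0.19. The interaction of genotype and stage in basal cells called no member and no gene (0% called). None of the 10 had an unadjusted limma p below 0.05, beside 10.2% of all genes. DESeq2 and edgeR called none for this interaction. Its estimates were negative for 9 of the 10, from -1.64 (*Actg2*, SE 0.85) to 0.02 (*Tagln*), and for 7 of the 10 with array quality weights.

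Libraries of 1 group also differed among themselves. Of the 4 virgin K8iΔRank basal libraries, those of mice 820 and 825 had 899 and 827 normalised counts of *Oxtr* and those of 821 and 822 had 351 and 467. *Cnn1* had 1143 and 1085 against 480 and 501, and *Mylk* 4112 and 4550 against 2754 and 3184. The actins did not follow: *Actg2* had 54.2 and 70.9 in mice 820 and 825 and 155 and 149 in 821 and 822. All 4 libraries were on the low side of *Clec2d*. Averaged over the 10 genes, library 825 lay 0.45 above the mean of the basal libraries on the log2 scale, 820 lay 0.39 above it, and the lowest were the virgin K8imTmG library of mouse 538 (-0.50) and the parous K8iΔRank library of mouse 794 (-0.48).

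**Figure D4:**
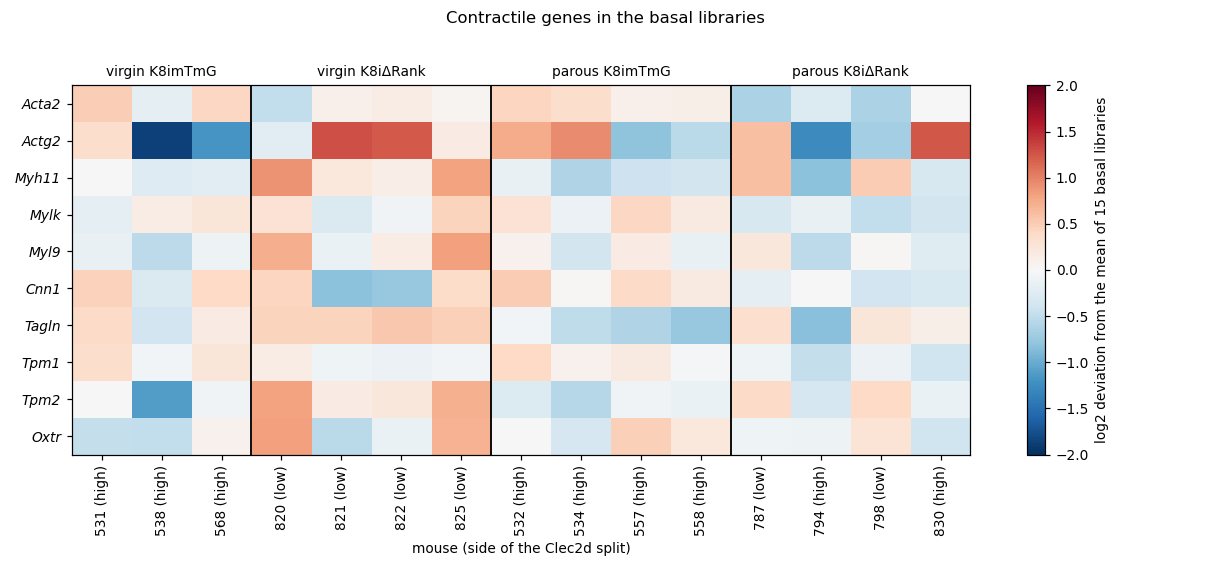
Log2 deviation of each gene (rows) in each basal library (columns, by mouse number and side of *Clec2d*) from its mean over the 15 basal libraries; red is higher and blue lower. Mice 820 and 825 are red for *Myh11*, *Myl9*, *Tpm2* and *Oxtr*, and *Actg2* varies most.

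With group means removed, the 45 pairs of members had a median Pearson r of 0.40 over the 15 basal libraries, which share depth and normalization, and 21 pairs exceeded 0.5 while 12 were below 0. The highest were *Myl9* with *Tpm2* (0.83) and with *Myh11* (0.81), and *Tagln* with *Tpm1* (0.80). The actins stood apart, *Acta2* with -0.49 to *Myh11* and -0.47 to *Oxtr*, and *Actg2* with -0.65 to *Oxtr* and -0.64 to *Mylk*. Against the mean of the other 9, r was 0.82 for *Tpm1*, 0.78 for *Tpm2* and *Myl9*, 0.02 for *Acta2* and -0.04 for *Actg2*. Of 10597 other genes, those most like the mean of the members by the same measure were *Gpr137* (r = 0.95), *Psmc4* (0.94), *Mrpl48* (0.92), *Fndc3a* (0.92) and *Jmjd1c* (0.91). These correlations describe the libraries and were not tested.

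In luminal cells most members were too low to compare. Of the 10 genes 4 or 5 passed the filter on low values in each comparison among luminal groups: *Acta2*, *Mylk*, *Tpm1* and *Oxtr*, and *Cnn1* as well in the genotype comparison of virgin mice and the stage comparison of K8iΔRank mice. Since *Cnn1* passed through the group where it was high, no count over the members that passed is read as a result. *Acta2* had 17.8, 18.4 and 22.4 normalised counts in virgin K8imTmG, 28.8, 64.7 and 110 in virgin K8iΔRank, 14.6, 16.0, 24.4, 31.9 and 33.3 in parous K8imTmG and 8.84, 12.2, 19.4 and 22.3 in parous K8iΔRank libraries. The virgin K8iΔRank libraries thus lay above those of the other genotype at that stage and above the parous K8iΔRank libraries. They rest on 87, 15 and 49 reads in mice 821, 822 and 825.

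*Acta2* fell from virgin to parous luminal K8iΔRank cells, by 1.93 ± 0.44 on the log2 scale (limma adjusted p = 0.0173, with 16% of all genes called), and it was the only member called there. The virgin libraries were all Clec2d-high and the parous ones all low, so that stage and side cannot be told apart. Every virgin library was also shallower than every parous one. The call was lost without mouse 821 (-1.49, limma adjusted p = 0.0718). It was also lost with the side as a term, added after the data had been seen, where the difference was -1.94 (limma adjusted p = 0.568) and the side itself differed by -0.01 ± 0.52. Over all genes the side term of this luminal fit called 18.6%. The side difference in luminal fits comes from parous K8imTmG libraries alone, 2 high and 3 low. Whether it holds in the other luminal groups was not tested. *Cnn1* had 3.85, 12.6 and 17.2 normalised counts in virgin and 1.97 to 3.48 in parous K8iΔRank libraries, with 2 to 13 reads in the virgin ones, and its test is not read since it passed the filter through them. The genotype-by-stage interaction in luminal cells called *Acta2* as well (-2.15 ± 0.59, limma adjusted p = 0.0317, with 12.9% of all genes called) and lost it without any one of mice 533, 538, 794, 821 and 825 (limma adjusted p = 0.0577 to 0.0866) and with the side as a term (-2.17, limma adjusted p = 0.219). Between the genotypes of virgin luminal cells no member was called by limma (0.984% of all genes were), DESeq2 called 2 and edgeR none. An unadjusted limma p below 0.05 was found for 2, beside 22.1% of all genes. There *Acta2* differed by 1.56 ± 0.44 (limma adjusted p = 0.0898), *Mylk* by 1.16 ± 0.45 (limma adjusted p = 0.174) and *Oxtr* by 0.77 ± 0.38 (limma adjusted p = 0.27). The groups did not overlap for *Acta2* and *Oxtr*.

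*Tpm1*, the member that luminal cells express well, had 520, 521 and 607 normalised counts in virgin K8imTmG, 492, 492 and 532 in virgin K8iΔRank, 386 to 484 in parous K8imTmG and 543 to 578 in parous K8iΔRank libraries. Parous K8iΔRank libraries lay above virgin ones without overlap (0.14 ± 0.16, limma adjusted p = 0.573). The luminal genotype-by-stage interaction of *Tpm1* was 0.49 ± 0.22 (limma adjusted p = 0.132) and was not called. In parous luminal cells every K8iΔRank library lay above every control, with a log2 difference of 0.38 ± 0.14 (limma adjusted p = 0.183). No member was called by limma in that comparison (0.0991% of all genes were), DESeq2 called 1 and edgeR none. An unadjusted limma p below 0.05 was found for 1, beside 19.9% of all genes. In luminal K8imTmG cells parous libraries lay below virgin ones (-0.35 ± 0.19, limma adjusted p = 0.305), and with the side as a term, added after the data had been seen, the difference was -0.45 and passed (limma adjusted p = 0.046). No member was called there by limma, DESeq2 or edgeR (limma called 2.2% of all genes). None had an unadjusted limma p below 0.05, beside 21.7% of all genes. Of the contraction lists, 3 of 33 apparatus, 1 of 27 signalling and 0 of 10 serum response factor and MRTF genes were called between stages of luminal K8imTmG cells, beside 2.2% of all genes. From virgin to parous K8imTmG cells *Pdlim3* and *Pdlim1*, actin-associated LIM proteins, rose (1.63 and 1.56) and *Myh14* fell (-1.04), as did *Stim1*, a calcium sensor of the endoplasmic reticulum (-1.32). From virgin to parous K8iΔRank cells 5 of 33, 4 of 27 and 1 of 8 were called, beside 16% of all genes, and of the 33 apparatus genes 1 rose and 4 fell, among them *Actg1*, the cytoplasmic gamma-actin (-1.17), and *Myl12a*, a non-muscle light chain (-1.22), while stage and side cannot be told apart. The luminal interaction called 4 of 33, 5 of 27 and 2 of 10, beside 12.9% of all genes. None of the 3 lists had a call between luminal genotypes at either stage. *Oxtr* was 8.40 to 48.4 in parous luminal K8imTmG libraries, with the 3 low-side libraries (11.2, 23.4 and 48.4) above the 2 high-side ones (8.40 and 9.59).

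Basal keratins were measured beside the contractile genes in the luminal libraries. In the virgin K8iΔRank library of mouse 821, *Acta2* stood at 2.84%, *Myl9* at 2.78% and *Mylk* at 2.58% of their basal means, and *Krt17* at 2.17%, *Krt14* at 2.12% and *Krt5* at 1.57%. In that of mouse 825, *Acta2* stood at 1.67%, *Mylk* at 1.77%, *Krt14* at 1.36% and *Krt5* at 0.706%. Other libraries followed this pattern in part or not. The parous K8imTmG library of mouse 494 had *Krt5* at 1.196%, *Krt14* at 0.863% and *Acta2* at 0.826%, with *Myl9* and *Krt17* at 0. In that library 1 read was worth 1.68 normalised counts. The parous K8iΔRank library of mouse 830 had *Myl9* at 1.49% and *Mylk* at 1.22% with *Krt5* at 0.398% and *Krt14* at 0.418%. Over the 15 luminal libraries the median was 0.577% for *Acta2*, 0.712% for *Mylk*, 0.398% for *Krt5* and 0.495% for *Krt14*. The part of basal cells in these luminal values was not tested.

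**Figure D5:**
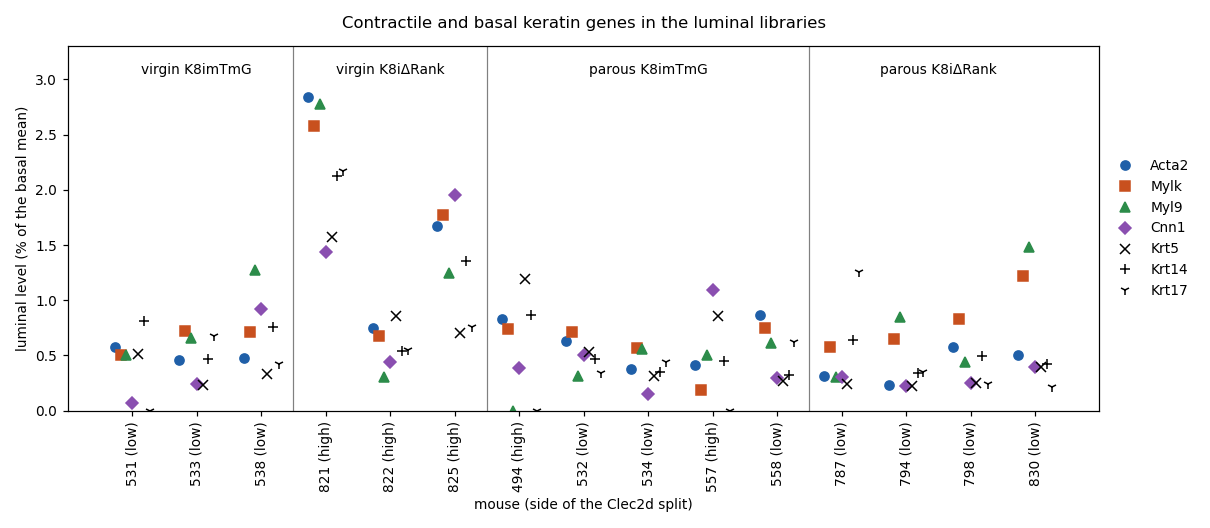
Level of 4 contractile genes (coloured) and 3 basal keratins (black) in each luminal library, as percent of the mean of the 15 basal libraries, by mouse number and side of *Clec2d*. The library of mouse 821 has the highest value of *Acta2*, *Mylk*, *Myl9* and all 3 keratins, and that of mouse 825 the highest of *Cnn1*.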

How the data were processed

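RNA of sorted cells was made into QuantSeq 3′ libraries with unique molecular identifiers. The authors trimmed, deduplicated (UMI-tools) and aligned reads to GRCm39 (Bowtie2) and deposited a signal table of counts divided by DESeq2 size factors. Values were whole multiples of a step per library in 100% of cases (tolerance 1e-06), from which reads were recovered. Groups came from the titles and genotype labels. Levels were compared by limma 3.58.1 with a mean-variance trend on log2(normalised count + 1), over genes above 10 in at least 25% of the libraries of the fit, with Benjamini-Hochberg adjustment over all of them and a threshold of 0.05. As alternatives, the recovered reads were tested with edgeR (quasi-likelihood, version 4.0.16) and with DESeq2 (version 1.42.0), which called 870 and 1162 genes between the genotypes of virgin basal cells, where limma called 954. Libraries of the same mouse number share an animal. Deviations from group means correlated from -0.24 to 0.34 over 13 mice with both lineages, and 6 exceeded 0.1. Libraries were 1 mouse each, and no pair of replicates agreed within sampling noise. The fits were tested on simulated data. The members and lists were chosen with earlier results of these data known. Of the lists, those named are the 3 higher and 3 lower genes of lowest adjusted p between lineages and those called among basal groups, and some of those called among luminal groups were added after their values were seen. Comparisons of members are given gene by gene where the unadjusted p was below 0.05 or the groups did not overlap, by ranges otherwise. Overlap of groups was computed for the members and not for all genes. Coordinates of the genes are those of GENCODE vM39 on GRCm39, and those of the promoter sites are on GRCm38.p6.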

Additional observations from a re-analysis of the deposited data

Results flagged for a closer look

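The interaction of genotype and stage on *Acta2* in luminal cells passed the threshold (-2.15 on the log2 scale, limma adjusted p = 0.0317), but not in 6 of 23 alternatives, which left out mouse 533, 538, 794, 821 or 825 or took the side of *Clec2d* as a term. Adjusted p ran from 0.00154 to 0.219 over the alternatives. None of the members had a library far from the others in a group of 4 or 5, where chance would mark about 1 in 20 groups.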

How the results depend on the processing

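Between lineages every member tested was called lower in each background under each alternative run (9 where a mean of at least 50 normalised counts left out *Actg2*), also in the paired fit with the mouse as a replicate block, where the median log2 differences were -6.72 over all groups and -6.31, -6.22, -6.77 and -6.67 within virgin K8imTmG, virgin K8iΔRank, parous K8imTmG and parous K8iΔRank mice. Calls between lineages of members that passed the filter through basal libraries alone are again not read as a result. Within a lineage the number of members called moved. In virgin basal cells, with 0 called between genotypes, it was 3 after quantile normalization, 1 with array quality weights, 1 with all basal libraries in one fit, and 0 to 1 when each mouse was left out (1 without 531). In parous basal cells it went from 0 to 3 with array quality weights and 2 by DESeq2. In luminal cells it went from 0 to 3 and 2 by the same settings between virgin genotypes, from 0 to 1 and 1 between parous genotypes, and from 0 to 1 between stages of K8imTmG with array quality weights and 1 with the side as a term. Between stages of K8iΔRank the 1 call became 0 over genes with a mean of at least 50 normalised counts, 2 by DESeq2, 2 by edgeR, 0 with the side as a term, and 0 to 3 leaving out mice (0 without 821, 3 without 822). For the luminal interaction the 1 call became 0 with the mean of at least 50 or the side as a term, 2 with array quality weights, 2 by DESeq2, and 0 to 1 leaving out mice. The filter at 50 drops *Acta2* from the luminal fits, and the cause of the other changes was not tested. Over all members tested within a lineage, 23 of 288 differences changed sign under quantile normalization (9), array quality weights (9), edgeR (3) or DESeq2 (2). Among the differences with an unadjusted p below 0.05 or no overlap, 5 changed sign over all alternatives. With the side as a term, added after the data had been seen, the virgin basal genotype difference of *Myh11* was -0.45 and of *Tagln* -0.23. The side difference in that fit comes from basal parous K8iΔRank libraries alone. After quantile normalization the parous basal difference of *Acta2* was 0.30, of *Mylk* 0.39 and of *Tpm1* 0.23. Fits within 1 side were not run where a group had no library on it, nor the side term between lineages in virgin mice. The shallow basal control libraries limit *Actg2*, and luminal values of most members rest on few reads.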
